A study of Homo sapiens with 4 samples.

Results

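RPMI8226 is an established human multiple myeloma line, a cancer of plasma cells, and the miRNAs described here are the ones best known from the nervous system. Every assay on the card named miR-9, miR-124, miR-128, miR-129, miR-137, miR-138 or miR-219 was taken, in each gene copy and arm, with passenger strands left out. This gave 10 of the card's 384 wells, all but 7 of which hold human miRNA assays: hsa-miR-9, hsa-miR-124, hsa-miR-128, hsa-miR-129-5p, hsa-miR-129-3p, hsa-miR-137, hsa-miR-138, hsa-miR-219-5p, hsa-miR-219-1-3p and hsa-miR-219-2-3p. The rule goes by assay names and uses no measured value. The line was grown for 24 h in 20% oxygen (normoxia) or 1% oxygen (hypoxia), and RNA was taken from the cells and from the exosome fraction of the medium, so that there were 4 groups of 1 sample each. The exosome fraction is a polymer precipitate of cleared and filtered medium, which concentrates the small vesicles that cells release together with other material of the medium. Only the exosome products were pre-amplified before the PCR. No sample of medium without cells was among the 4, so what such medium would give in these assays was not tested.

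A miRNA is cut from a hairpin transcript and loaded into an Argonaute protein, which it guides to messenger RNAs that pair with its seed, the bases near its start. miR-124 is the classic neuronal miRNA and represses the splicing regulator PTBP1, miR-9 acts in neural progenitors and represses REST, and miR-128, miR-129 and miR-137 are enriched in neurons. miR-138 limits the size of dendritic spines, and miR-219 drives the maturation of oligodendrocytes, the cells that make myelin. None of the 10 is a marker of plasma cells, although miR-9 is also known in B-cell cancers, where it can repress the plasma cell regulator PRDM1.

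The mature sequences of 6 of the 7 detected members are shown because each assay reads 1 such molecule (miR-124 is named only), and with them that of miR-219-2-3p, whose contrast with miR-219-1-3p is described further on. They are printed 5′ to 3′ from RefSeq (GRCh38.p14), with the seed, bases 2 to 8, in capitals. RefSeq's table gave a sequence for 8 of the 10 members under the names used here.
miR-138: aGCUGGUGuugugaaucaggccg
miR-9: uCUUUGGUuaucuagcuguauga
miR-128: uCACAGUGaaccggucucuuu
miR-129-5p: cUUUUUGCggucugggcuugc
miR-219-5p: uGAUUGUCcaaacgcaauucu
miR-219-1-3p: aGAGUUGAgucuggacgucccg
miR-219-2-3p: aGAAUUGUggcuggacaucugu

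The 7 seeds printed here all differ from each other. Several members come from more than 1 gene, and a Ct cannot say which gene was active. miR-138 is encoded at chr3:44114234-44114256 and chr16:56858527-56858549, both on the plus strand. miR-9 is encoded at chr1:156420392-156420414 and chr5:88666902-88666924 on the minus strand and at chr15:89368032-89368054 on the plus strand, each within the span of a long non-coding host gene (MIR9-1HG, MIR9-2HG and MIR9-3HG). miR-128 lies at chr2:135665446-135665466 within the span of R3HDM1 and at chr3:35744527-35744547 within that of ARPP21, both on the plus strand. miR-219-5p is made from a hairpin on chromosome 6 (chr6:33207855-33207875, plus strand) and from one on chromosome 9 (chr9:128392676-128392696, minus strand), whose other arms are miR-219-1-3p and miR-219-2-3p. These 3p arms have the same base at 15 of their 22 positions and at 5 of the 7 seed positions.

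The measurement is the threshold cycle (Ct), the PCR cycle at which a well's fluorescence passes a set level, so a lower Ct means more template. Values of exactly 35 were read as a ceiling, meaning not detected. Whether any such well had failed was not tested. In the exosome fraction miR-520e was at 35 in normoxia and 18.98 in hypoxia. In cells miR-493 was at 20.94 in normoxia and 35 in hypoxia. Each assay had 1 well per sample. The 4 wells of the small nuclear RNA U6, the normalizer of the cells, gave Ct 18.82 ± 0.15 at 20% and 18.81 ± 0.12 at 1% oxygen (SD over n = 4 wells on 1 card), and the ath-miR159 spike-in, the normalizer of the exosome fraction, stood at 22.94 and 22.99 there. U6 was at the ceiling in both exosome samples and the spike-in in both cell samples, so the compartments share neither normalizer. The wells of U6 are the only repeats on a card, so no later value has an error between samples and no test was made. Of the 6 blood and lymphoid markers examined (miR-142-3p, miR-142-5p, miR-146a, miR-150, miR-155 and miR-223), all 6 were detected in all 4 samples, while the liver marker miR-122 and both miR-486 assays of the red cell list were at the ceiling in all 4 and miR-451 was seen in the normoxic exosome fraction alone. Of the 6 epithelial miRNAs, miR-200a, miR-200b, miR-203 and miR-205 were detected in all 4 samples, miR-200c in both cell samples alone and miR-141 in both exosome samples alone, so detection alone does not mark a lineage on this card.

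miR-138, miR-9 and miR-128 were found in both cell samples, and miR-219-1-3p in normoxic cells alone. In normoxic cells 4 of the 10 members were detected, against 43.0% of all human assays, and in hypoxic cells 3 of 10, against 41.1%. In the exosome fraction 6 of 10 were detected in normoxia and 7 of 10 in hypoxia, against 58.6% and 58.1% of all assays. The members' shares therefore lay near those of the whole card. Detection in all 4 samples was seen for 3 members (36.6% of all assays), and 3 others, miR-129-3p, miR-137 and miR-219-2-3p, stood at the ceiling in all 4 (33.4% of all assays). miR-124, miR-129-5p and miR-219-5p were detected in the exosome fraction and in neither cell sample, a pattern of 21.5% of all assays.

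**Figure D1:**
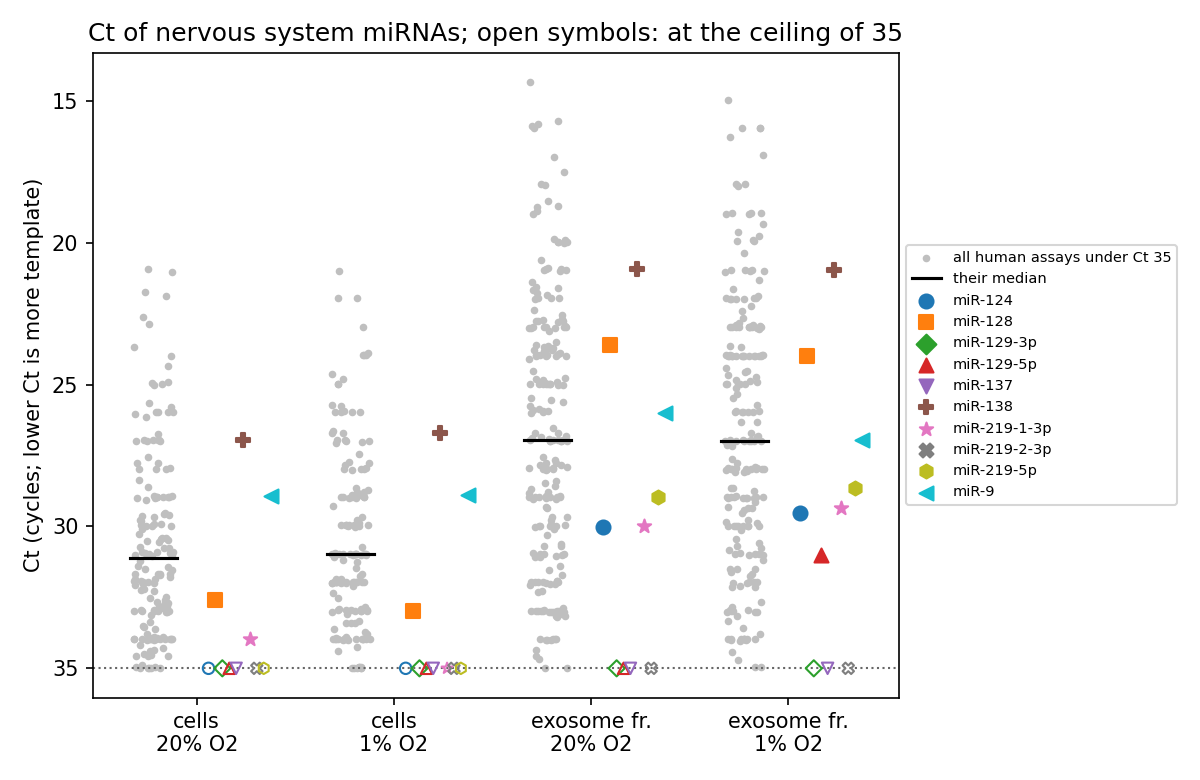
Ct of the 10 nervous system miRNAs in each of the 4 samples (coloured symbols; open symbols are wells at the ceiling of 35), beside all human miRNA assays under Ct 35 (grey points, with their median as a bar). The axis is turned so that more template is higher. miR-138 lies above the median of every sample, and miR-9 and miR-128 change places between cells and exosome fraction.

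miR-138 had the lowest Ct of the set in every sample. In cells its Ct was 26.95 at 20% oxygen and 26.72 at 1%, and in the exosome fraction 20.93 and 20.97 in the same order. Counted from the lowest Ct, it was number 25 and number 22 among the 162 and 155 miRNAs detected in the cell samples, and number 24 and number 23 in the exosome samples, of which the first had 221 detected miRNAs. This miRNA of dendritic spines was thus among the lower Ct values of the myeloma line in both compartments. Assays differ in efficiency, so an order of Ct between assays is not an order of molecule numbers.

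miR-9 followed in cells. Its cellular Ct was 28.94 at 20% oxygen and 28.87 at 1%, number 40 and number 42. In the exosome fraction it was at 25.99 and 26.94, number 101 and number 105. It was therefore well placed among cellular miRNAs and near the middle of the exosome fraction, where the median Ct of detected miRNAs was 26.96 in normoxia and 26.97 in hypoxia.

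miR-128 showed the opposite placing. Its cellular Ct was 32.58 at 20% oxygen and 32.96 at 1%, number 107 and number 117, later than the cellular medians of 31.12 and 30.99. In the exosome fraction it stood at 23.60 and 23.98, number 58 and number 67, well before the medians.

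The other detected members came late. miR-219-5p was at 28.95 and 28.65 in the exosome fraction (20% and 1% oxygen) and at the ceiling in both cell samples. miR-219-1-3p, an arm of the same chromosome 6 hairpin, had 29.97 and 29.35 in the exosome fraction, 33.98 in normoxic cells and the ceiling in hypoxic cells. miR-219-2-3p, the partner arm in the chromosome 9 hairpin, was at the ceiling in all 4 samples. The 3p arm of the chromosome 6 gene was thus the only 3p arm of miR-219 detected, and miR-219-5p cannot be assigned to either gene by its own assay. miR-124 was at 30.01 and 29.51 in the exosome fraction and at the ceiling in both cell samples. miR-129-5p was detected in 1 sample, the hypoxic exosome fraction, at Ct 31.00, and its partner arm miR-129-3p in none.

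Hypoxia came with small differences in the cells. Changes are given as log2 of hypoxia over normoxia after normalization, so that 1 stands for 2-fold. miR-138 was 0.23 (1.17-fold higher in hypoxia), miR-9 0.06 (1.04-fold higher) and miR-128 -0.39 (1.31-fold lower). None of these 3 members passed 2-fold, against 13.6% of the 147 assays detected in both cell samples. The median of the 3 was 0.06 and that of all 147 was 0.03, and the middle 95% of all assays lay between -1.19 and 1.31. For scale, subtracting 1 U6-like well from another would give a spread of 0.19 on this scale, which the change of miR-9 did not reach. The U6 wells were at Ct 18.82 and 18.81, far earlier than the members. The spread of later wells and that between samples were not measured, so a change above 0.19 is not thereby beyond them. With RNU44 and RNU48 in place of U6 the value of miR-9 was -0.09, so its direction in cells depends on the normalizer. miR-219-1-3p was the only member seen in 1 oxygen condition alone (6.1% of all assays in cells): with Ct 33.98 in normoxia and the ceiling in hypoxia it was at least 2.03-fold lower in hypoxic cells, a bound from a Ct about 1 cycle under the ceiling. With a ceiling of 34 that bound was -0.02 on the log2 scale (-1.02 at 35), so the 2-fold difference rests on the ceiling chosen. In bulk samples a change in the number of cells or vesicles that hold a miRNA and a change in the RNA of each cannot be told apart.

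In the exosome fraction 6 members were measured in both samples, and 4 were higher and 2 lower in hypoxia. Among all 203 assays measured in both, 85 were higher and 118 lower. The members gave the following changes. miR-219-1-3p was 0.67 on the log2 scale (1.60-fold higher), miR-124 0.55 (1.46-fold higher), miR-219-5p 0.36 (1.28-fold higher) and miR-138 0.02. The first 3 of these were number 14, 17 and 30 of 203 from the highest change, and each of them was at the ceiling in hypoxic cells. miR-128 was -0.33 (1.26-fold lower). miR-9 was -0.90 (1.87-fold lower), number 195 of 203 from the top. None of the 6 passed 2-fold, against 7.39% of the 203 assays. The median of the 6 was 0.19 and that of all 203 was -0.07, with the middle 95% between -1.36 and 1.36. The median Ct of each sample, used in place of the spike-in, moved all exosome changes up by the same amount and gave 0.87 for miR-219-1-3p, 0.22 for miR-138, -0.13 for miR-128 and -0.70 for miR-9.

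**Figure D2:**
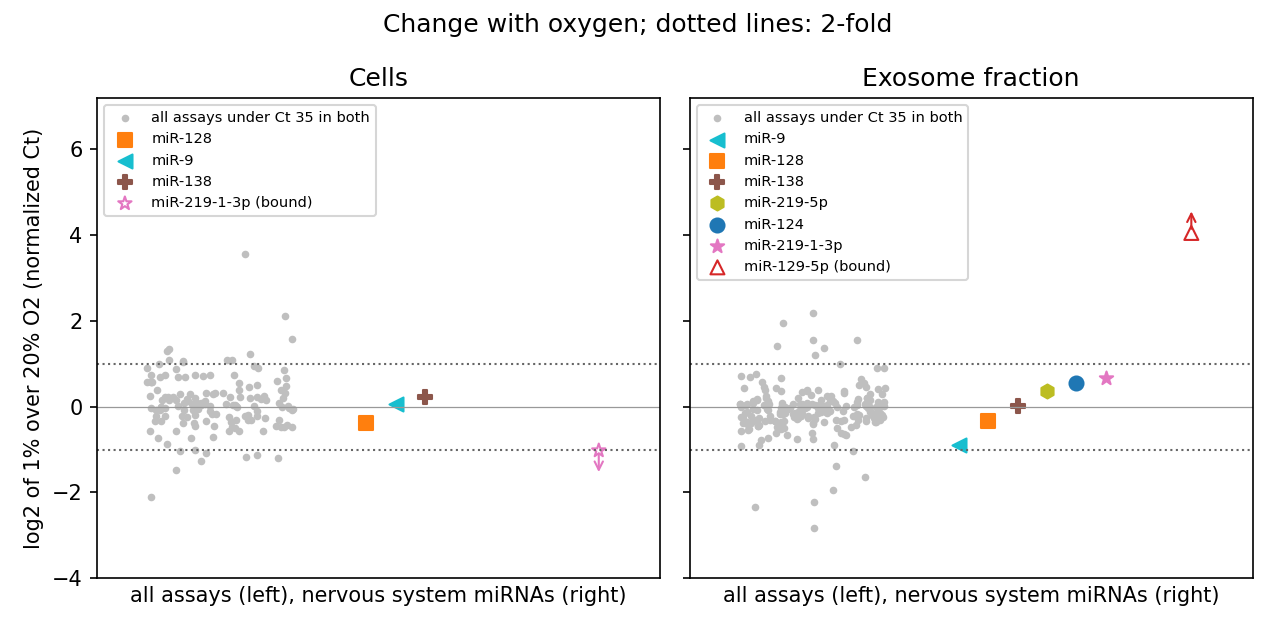
Log2 of hypoxia over normoxia in cells (left) and exosome fraction (right) for all assays under Ct 35 in both samples of the comparison (grey points) and for the nervous system miRNAs (coloured symbols). Open symbols with arrows are bounds of miRNAs at the ceiling in 1 sample, and dotted lines mark 2-fold. Every member measured in both samples lies between the dotted lines, miR-9 in the exosome fraction closest to one at -0.90.

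The difference of miR-9 in the exosome fraction rests on Ct values of 25.99 and 26.94. Both lie within 0.1 of a whole cycle, and they differ by 0.96 cycles. Of the 20 detected values of the members, 13 (65.0%) lay within 0.1 of a whole cycle, as did 480 of the 757 detected values of all assays (63.4%). The part of this clustering in any single change was not tested.

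miR-129-5p was the only member seen in 1 exosome sample alone, a pattern of 9.02% of all assays there. From the ceiling in normoxia to Ct 31.00 in hypoxia, it was at least 16.6-fold higher in the hypoxic exosome fraction. With a ceiling of 34 it was at least 8.3-fold higher. Both bounds rest on 1 well in each sample and hold only if the normoxic well did not fail, which was not tested. The partner arm of miR-129-5p, miR-129-3p, was at the ceiling in the same samples, and both arms were at the ceiling in cells. The authors' deposited table lists the ratio 16.5938 for this miRNA and 0.4919 for miR-219-1-3p in cells, computed with the ceiling as if it had been measured, and its ratios for the 10 members differed from those recomputed here by at most 0.0008.

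The responses of the compartments could be set side by side for the 3 members detected in all 4 samples. The log2 change of miR-128 was -0.39 in cells against -0.33 in the exosome fraction, 0.06 apart. For miR-138 the exosome change minus the cellular change was -0.21. For miR-9 it was -0.97, from 0.06 in cells and -0.90 in the exosome fraction. No member differed 2-fold between the compartments, against 15.9% of the assays detected in all 4 samples. When the median Ct of each sample served as normalizer throughout, miR-9 was at -1.06 and so past 2-fold.

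miR-9 and miR-128 lay at opposite ends when exosome fraction and cells were compared directly. The raw gap, the Ct in cells minus the Ct in the exosome fraction, was 6.51 cycles in the median assay in normoxia and 6.15 in hypoxia, over the assays detected in all 4 samples, and includes the pre-amplification. For miR-9 the gap was 2.95 cycles in normoxia and 1.93 in hypoxia, number 8 and number 3 from the smallest. For miR-128 it was 8.98 cycles at both oxygen levels, number 9 and number 6 from the largest. For miR-138 it was 6.02 and 5.75, close to the median assay. These positions do not depend on the normalizer, but an assay's own pre-amplification gain would enter them.

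With Ct values taken relative to the median of those assays in the same sample, miR-9 was 16.0-fold lower in the exosome fraction than in cells in normoxia and 33.2-fold lower in hypoxia. It was the 1 member of 3 that was at least 4-fold lower at both oxygen levels, against 16.7% of those assays. miR-128 was 4.09-fold higher in normoxia and 3.996-fold higher in hypoxia, so none of the 3 was at least 4-fold higher at both levels, against 2.9% of assays. miR-138 was 1.91-fold lower and 2.35-fold lower. Only the exosome products were pre-amplified, and subtracting 1 median per sample does not take out a gain particular to an assay. Whether the gain differed between assays was not tested, so these folds are not levels free of it. The scale of these relative values is not centred at 0, since the median assay lay at -0.44 in normoxia and -0.83 in hypoxia on the log2 scale. With the mean in place of the median every value was higher by 0.66 in normoxia and 0.93 in hypoxia, and miR-128 then passed 4-fold at both levels (log2 of 2.69 and 2.93) while miR-9 stayed at -3.34 and -4.12.

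**Figure D3:**
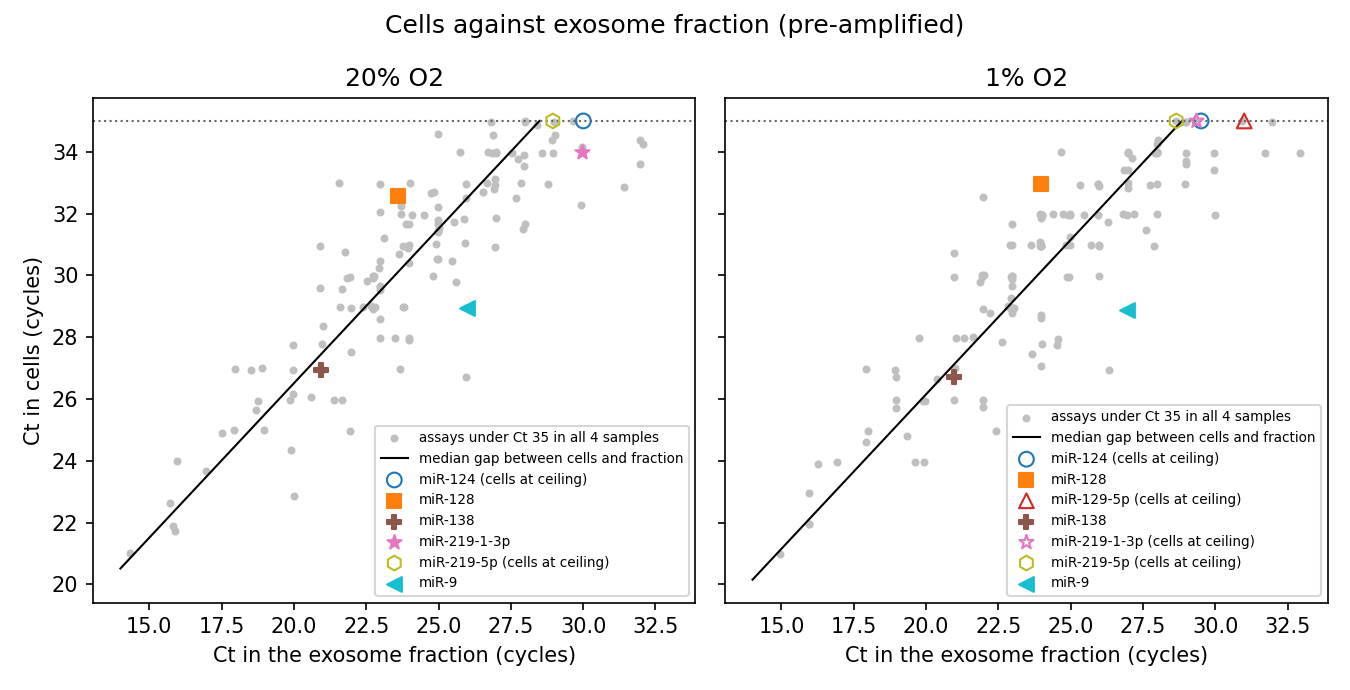
Ct in cells against Ct in the exosome fraction at 20% (left) and 1% oxygen (right) for the assays detected in all 4 samples (grey points) and the nervous system miRNAs detected in that exosome sample (coloured symbols; open where the cells were at the ceiling of 35, the dotted line). The black line is the median gap of 6.51 and 6.15 cycles; miR-128 lies above it by more than 2 cycles and miR-9 below it by more than 3.

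The members seen in the exosome fraction but not in cells were late in that fraction. At the median gap, an exosome Ct of 28.49 in normoxia or 28.85 in hypoxia corresponds to the ceiling in cells. Of the assays detected in the exosome fraction at or above that Ct, 23.6% of 89 in normoxia and 21.7% of 83 in hypoxia were detected in cells. Below it, 96.2% of 132 and 94.1% of 136 were. The median gap was taken over assays detected in all 4 samples. Late assays whose gap put them at the ceiling in cells did not enter it, so part of this contrast is built in. miR-124, miR-129-5p and miR-219-1-3p lay on the late side wherever they were detected in the exosome fraction. miR-219-5p lay on the late side in normoxia (28.95) and just on the early side in hypoxia (28.65), where its gap was at least 6.35 cycles. For these members, a lower level in cells and a level out of reach of the cell cards, which had no pre-amplification, cannot be told apart.

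miR-128 has a neighbour in target pairing, the miR-27 family. Bases 2 to 8 of miR-27a and miR-27b equal bases 1 to 7 of miR-128, so target sites of the families can overlap.
miR-27a: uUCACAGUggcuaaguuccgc
miR-27b: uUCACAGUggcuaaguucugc

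Both were detected in every sample. miR-27a was at 29.94 and 29.77 in cells (20% and 1% oxygen) and at 21.94 and 21.86 in the exosome fraction. miR-27b was at 31.67 and 31.97 in cells and at 23.87 and 23.98 in the exosome fraction. Their gaps between cells and exosome fraction lay between 7.80 and 7.997 cycles, larger than the median assay as for miR-128. RefSeq lists the seed of miR-128 for 3 mature miRNAs, among them an arm of miR-216a. The arm with this seed is miR-216a-3p. The card's miR-216a assay, whose name gives no arm, was at the ceiling in all 4 samples. Whether it reads the arm with the seed cannot be told from its name.

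For each member detected in all 4 samples, the assays with the closest pattern were found by the root mean square difference over the 4 normalized Ct values, each assay's own mean removed. miR-9 was closest to miR-142-3p (0.25 cycles), a miRNA of blood cells, then miR-362-5p (0.35) and miR-331-3p (0.44), where the median assay lay 2.0 cycles away. miR-142-3p stood at 24.95 and 24.97 in cells and 21.95 and 22.41 in the exosome fraction. miR-128 was closest to miR-25 (0.13), miR-92a (0.20) and miR-148a (0.41), with the median assay at 1.34. miR-138 was closest to miR-30c, miR-324-3p and miR-186 (0.11 each), with the median assay at 0.57. These are distances over 4 values and carry no test. They include the gap between cells and exosome fraction, so they are not separate from the gaps given above, and they mark no lineage.

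A further 13 assays of miRNAs known from neurons or glia were read in the same way. In both cell samples 4 of them were detected (39.0% of all assays), and in both exosome samples 6 (53.8% of all assays). miR-132 and miR-212, which are processed from 1 transcript under the control of CREB in neurons, were both detected in all 4 samples: miR-132 at Ct 30.89 and 30.98 in cells and 23.96 and 23.99 in the exosome fraction, miR-212 at 33.96 and 33.71 in cells and 28.56 and 28.98 in the exosome fraction. miR-135a and miR-383 were the other pair detected in all 4. miR-218, a miRNA of motor neurons, was seen in the exosome fraction alone, at 31.93 and 31.96. miR-134, miR-153, miR-326, miR-346, miR-433, miR-485-3p and miR-485-5p, 7 of the 13, were at the ceiling in all 4 samples (33.4% of all assays). None of the 4 passed 2-fold in cells (13.6% of all assays measured in both).

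miR-338-3p, which acts with miR-219 in oligodendrocyte maturation, was the 1 of 6 past 2-fold in the exosome fraction (7.39% of all assays measured in both). It was at Ct 31.92 in normoxia and 30.57 in hypoxia, 2.65-fold higher in hypoxia, and at the ceiling in both cell samples. miR-219-1-3p (1.60-fold) and miR-219-5p (1.28-fold) were higher in the same sample, both within 2-fold.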

How the data were processed

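RNA from 4 samples (1 per group) was measured by quantitative PCR on TaqMan array cards. Per the labels' protocols, 3 µl of each 50 µl eluate was reverse transcribed, and the spike-in entered at lysis. The authors' first deposited table holds Ct values of 384 wells (377 human miRNA assays), not normalized, and the second their ratio of hypoxia over normoxia, made with Data Assist 3.1 per the series' design text. The sources used here do not give the origin of the ceiling of 35. A Ct carries no count or depth.

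From the Ct values, log2 changes were computed against the mean of the U6 wells (cells) or the spike-in (exosome fraction), for assays under Ct 35 in both samples. A miRNA at the ceiling in 1 sample has a bound against Ct 35. Exosome fraction and cells were compared after each sample's median Ct over the 138 assays detected in all 4 samples was subtracted. The calculation was run on simulated data with planted 4-fold changes and the spread of the U6 wells. Wells at the ceiling and shifts of the normalizer were not simulated, so this checks the arithmetic only. Named miRNAs are the members, the control assays, the lists of neural, blood, epithelial, liver, muscle and red cell miRNAs, and the 3 nearest patterns per member. Also named are assays matched, by name without the arm, to a miRNA that shares a seed. miR-27a and miR-27b were added after the sequences were seen. Of the muscle list (miR-1, miR-133a, miR-133b), 0 assays were detected in normoxic and 1 in hypoxic cells, and 3 and 2 in the exosome samples. The members and lists were chosen with earlier results of these data known. Card names without an arm were matched to the RefSeq guide arm by hand. Python 3.11.15, pandas 2.3.3, numpy 2.4.6 and matplotlib 3.10.9 were used.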

Additional observations from a re-analysis of the deposited data

Results flagged for a closer look

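For miR-9 and miR-219-1-3p the values for hypoxia over normoxia had opposite signs in cells and in the exosome fraction. The cellular log2 change of miR-9 was 0.06 and that of its exosome signal -0.90, which puts the latter minus the former at -0.97; with RNU44 and RNU48 as normalizers the cellular value was -0.09, the same sign as in the exosome fraction, and 0.06 is below the 0.19 between U6-like wells. miR-219-1-3p had a bound of -1.02 in cells against 0.67 in the exosome fraction, at least 1.70 apart; with a ceiling of 34 the bound was -0.02 and the distance at least 0.70. Each compartment has 1 sample per oxygen level, so neither difference was tested. Groups of 1 sample allow no search for samples that stand apart.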

How the results depend on the processing

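The counts of members past 2-fold stayed at 0 in cells and in the exosome fraction under every normalizer run. They cover the 3 and 6 members under Ct 35 in both samples. The bounds of miR-219-1-3p in cells (-1.02) and of miR-129-5p in the exosome fraction (4.05) are outside these counts. In the exosome fraction the median Ct was the only other normalizer. A stricter Ct limit only takes assays out, so it could not change a count of 0. In cells a limit of Ct 32 took out miR-128, which was at 32.58 and 32.96 there. The count of members whose response differed 2-fold between compartments was 0, and 1 (miR-9) with the median Ct as normalizer. The count 4-fold apart between exosome fraction and cells was 1, and 2 with the mean Ct subtracted or with a 2-fold threshold; the members were miR-9 and miR-128 in both cases. With a limit of Ct 32 the members detected in normoxic cells were 2 in place of 4, and all assays 99 in place of 162. Of 45 recomputed log2 changes, 39 moved by less than 0.19, among them those under a Ct limit, which repeat the main value by construction. The other 6 were the exosome changes with the median normalizer, which moves all of them by the same amount. No main value of these changes, bounds left out, reached 2-fold, so none could count as a reversed call. Below 2-fold, miR-9 in cells changed sign with RNU44 and RNU48 (0.06 to -0.09). The difference between compartments for miR-128 did so with the median Ct (0.06 to -0.03). With a ceiling of 34 the bound of miR-219-1-3p in cells was -0.02 and that of miR-129-5p 3.05 (4.05 at 35). The counts of all assays past 2-fold were 20 in cells, 10 with Ct under 32 in at least 1 sample and 5 in both, and 15, 9 and 2 in the exosome fraction. No paired analysis was possible because each group is 1 sample. The cause of these shifts was not tested beyond what the alternatives change by construction.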
